A study of Mus musculus with 8 samples.

Results

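The PRSS serine protease genes of the mouse were followed from pachytene spermatocytes (PS), the long meiotic prophase stage, to round spermatids (RS), the haploid cells that follow meiosis. The members were all genes of the RNA-seq tables whose symbol is *Prss* or *Tmprss* followed by a number, which gave 55 of 23343 genes, 38 of them *Prss* and 17 *Tmprss*. The name was the sole criterion for a member, but the family was chosen with earlier results of these data known. RNA-seq was performed on PS and RS of *Rnf8;Scml2*-dKO mice, which lack the ubiquitin ligase RNF8 and the Polycomb protein SCML2, and chromatin immunoprecipitation for acetylation of histone H3 at lysine 27 (H3K27ac), a mark of active promoters and enhancers, was performed on PS and RS of wild-type mice. All mice were adult, on a C57BL/6 background, and each stage of each assay had 2 replicates, 8 samples in all. Cells were purified from testes by BSA gravity sedimentation, with the dKO cells taken from single males. RNA and H3K27ac thus came from different genotypes and different mice, no wild-type RNA-seq was analysed here, and a value of RNA in these cells is a value in infertile mutant mice.

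Trypsin-like serine proteases cut proteins after basic residues with a catalytic triad of histidine, aspartate and serine, and most are made as inactive zymogens that another protease has to cut. The TMPRSS enzymes are anchored in the plasma membrane by a segment near their amino end, while many PRSS enzymes are secreted or held by a lipid anchor. In the testis, several family members are made only in germ cells, where they are known from the acrosome, the sperm surface and the maturation of ADAM3, a sperm surface protein needed for passage into the oviduct. Other members are digestive, epithelial, mast cell or liver enzymes.

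The RNA-seq libraries held 9655405 to 12289694 reads on genes, and the H3K27ac lists held 41095 to 74919 intervals, most of them in RS replicate 1. The summed RPKM of 7 round spermatid markers was 443 and 762 in the PS libraries and 12949 and 13776 in the RS libraries, and that of 7 spermatocyte markers was 373 and 246 in PS and 146 and 200 in RS. Spermatocyte markers were therefore not absent from the RS libraries, where 4 of the 7 were called lower and *Tex15* higher, by a log2 fold change of 2.47. Markers of other cells also moved with stage. All 5 Leydig cell markers were lower in RS, with a summed RPKM of 727 and 546 in PS and 68.0 and 42.4 in RS, of which *Insl3*, a Leydig cell hormone, made up 593 and 450 in PS. All 4 tested leukocyte markers were higher in RS, with a summed RPKM of 1.09 and 1.20 in PS and 12.6 and 11.0 in RS. Of 6 spermatogonia markers, 3 were called higher in RS and none lower, with a summed RPKM of 38.3 and 25.99 in PS and 49.6 and 44.6 in RS. Of 4 tested Sertoli cell markers, *Wt1* was called higher (log2 fold change 1.31), and the summed RPKM of the list was 13.1 and 5.33 in PS and 12.9 and 8.99 in RS. The part of these cells in the results on proteases was not tested. Of the targeted genes, *Rnf8* had 93 and 110 reads in PS and 61 and 50 in RS, and *Scml2* had 40 and 92 reads in PS and 44 and 98 in RS. There was no wild-type library to set them against, so they do not check the genotype.

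A minority of the family was expressed in these cells. An RPKM, the reads on a gene scaled for transcript length and library size, of at least 1 in both replicates was reached by 20 of 55 members in PS, against 46.0% of all genes, and by 23 of 55 in RS, against 49.6% of all genes. The 20 members of PS were all among the 23 of RS. Together the members took 0.0744% and 0.0909% of reads in the PS replicates and 0.150% and 0.143% in the RS replicates, and their summed RPKM was 457 and 564 in PS and 1114 and 1040 in RS. *Prss39*, the acrosomal protease TESP1, had the highest RPKM of the family in all 4 libraries, with 18.1% and 21.4% of the summed RPKM in PS and 21.1% and 25.3% in RS. The ranks behind it differed by stage. *Prss42*, *Prss43* and *Prss45* came next in both PS libraries, and *Prss37* and *Prss55* in both RS libraries.

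At least 10 reads in at least 2 of the 4 RNA libraries were required of a gene for testing, and 27 members passed, 24 *Prss* and 3 *Tmprss*. All 27 had at least 10 reads in a library of each stage, so none passed through a single stage alone. No read was found in any library for 13 members. These were *Prss1* and *Prss3*, pancreatic trypsinogens, *Prss16*, a thymus protease, *Prss22*, *Prss27*, *Prss28* and *Prss29*, the latter pair known from the implanting uterus, *Prss34*, a mast cell and basophil protease, *Tmprss3*, a gene of hearing, *Tmprss15*, the enteropeptidase that activates trypsin in the gut, and the airway and epithelial genes *Tmprss11a*, *Tmprss11c* and *Tmprss11e*. A count of 0 allows up to 3 reads, or 0.244 to 0.311 CPM (the share of a library's reads) depending on the library, as far as counting error goes.

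The other 15 members under the filter had at most 12 reads in any library. The highest total over the 4 libraries was 20 reads, for *Tmprss11bnl*, followed by 18 for *Tmprss7*, 13 each for *Prss8*, the epithelial protease prostasin, and *Prss30*, and 10 for *Tmprss5*. *Tmprss6*, the liver protease that lowers hepcidin, and *Tmprss13* had 8 reads each, *Tmprss4* had 6 and *Tmprss11f* had 5. *Prss2*, another pancreatic trypsinogen, *Prss33* and *Prss57*, a neutrophil protease, had 4 each, *Tmprss11d* had 2, and *Prss32* and *Tmprss11g* had 1. Summed over all 28 members under the filter there were 22 and 19 reads in PS and 52 and 24 in RS. These genes were at or near background at this depth, and no change between stages could be read from them.

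Neighbouring members whose start sites lay within 200 kb of the next were taken as a cluster. There were 9 clusters with 36 members, of which 14 were expressed, and 19 members stood outside clusters, of which 9 were expressed. Whole clusters were either expressed or silent in most cases. All 6 members of the chromosome 9 array from *Prss42* to *Prss50*, all 3 members on chromosome 14 and both members on chromosome 1 near *Prss39* were expressed. None was expressed in the clusters of 7 *Tmprss11* genes on chromosome 5, of the 3 trypsinogens *Prss3*, *Prss1* and *Prss2* on chromosome 6, of *Prss34*, *Prss28* and *Prss29* on chromosome 17, or of *Tmprss4* and *Tmprss13* on chromosome 9. The exceptions were the cluster of 7 genes from *Prss33* to *Prss27* on chromosome 17, in which *Prss41* and *Prss21* were expressed, and that of *Prss53*, *Prss8* and *Prss36* on chromosome 7, in which *Prss53* was.

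**Figure D1:**
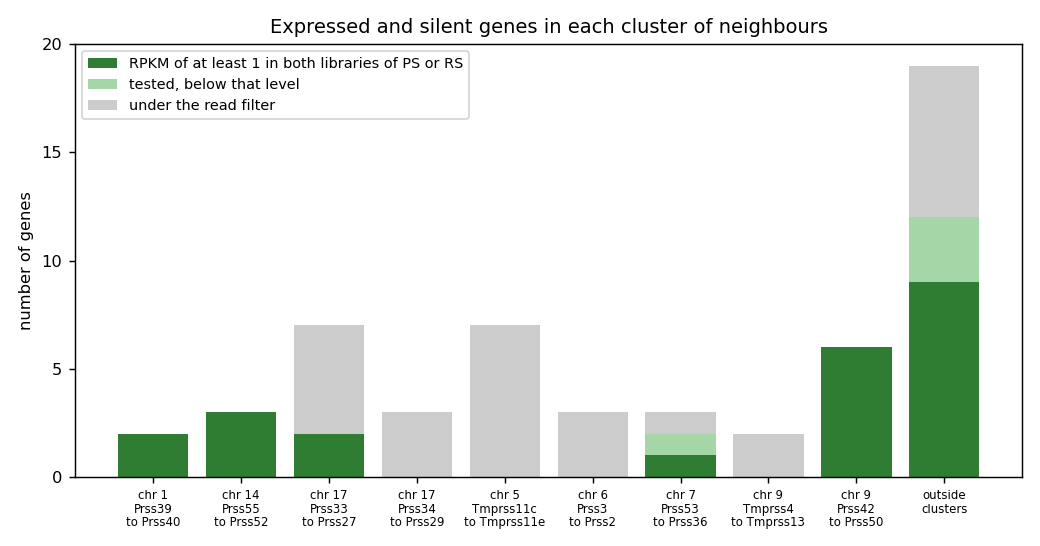
Number of genes (vertical axis) in each cluster of neighbouring members and outside clusters (bars), split into genes with an RPKM of at least 1 in both libraries of PS or RS (dark green), tested genes below that level (light green) and genes under the read filter (grey). The clusters on chromosome 1, chromosome 14 and the second on chromosome 9 are wholly dark green, and 4 clusters are wholly grey.

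In wild-type cells, H3K27ac intervals were few or absent across 3 of the 4 silent clusters. Across the 24.3 kb of the silent *Prss34* cluster and the 151 kb of the trypsinogen cluster, no sample had an interval, and across the 514 kb of the *Tmprss11* cluster there was 1 interval in each of 3 samples and 0 in RS replicate 2. The 175 kb from *Tmprss4* to *Tmprss13*, also without an expressed member, held 2 and 2 intervals in PS and 7 and 3 in RS, a number like that of the expressed pair on chromosome 1, with 2 and 4 in PS and 9 and 2 in RS over 62.5 kb. Other genes lie between *Tmprss4* and *Tmprss13*, of which *1700003G13Rik* was expressed in RS. The 66.4 kb of the chromosome 9 array from *Prss42* to *Prss50* held 5 and 7 intervals in PS and 10 and 8 in RS. Of the 28 members under the read filter, 27 had no interval within 2 kb of a start site in any sample. The exception was *Tmprss4*, with a fold enrichment of 6.10 and 5.81 in RS and no interval in PS, and its interval in RS replicate 2 is annotated to the overlapping gene *BC049352*.

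Between the stages, edgeR's quasi-likelihood test called 14 of the 27 tested members higher in RS and 8 lower, at a Benjamini-Hochberg adjusted p below 0.05 over all 14647 genes tested and a change of at least 1.5-fold. Over all tested genes, 30.4% were called higher and 27.6% lower. The median log2 fold change of the tested members was 1.33 and that of all tested genes was 0.01. It fell to 0.84 without PS replicate 1 and to 0.49 on the log2(RPKM + 1) scale, which compresses low genes. In whole-cell RNA of purified populations, more cells of a type and more RNA per cell cannot be told apart.

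**Figure D2:**
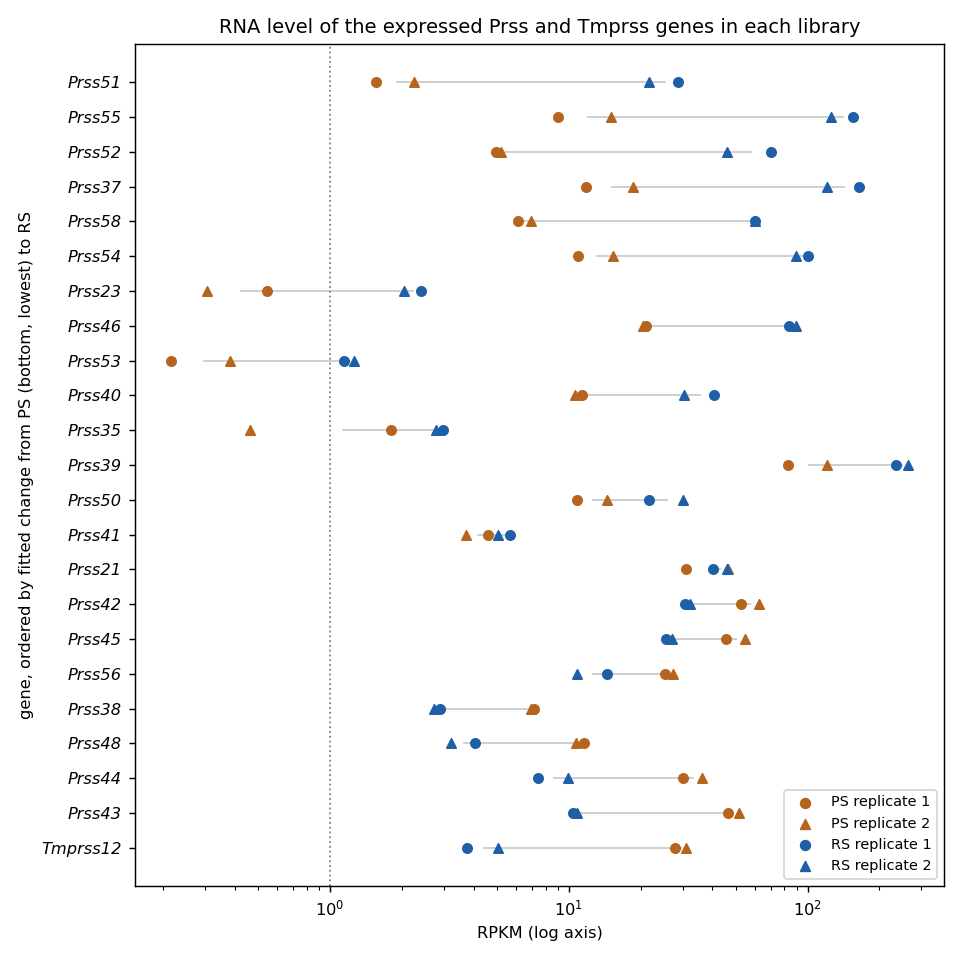
RPKM on a log axis (horizontal) of the 23 expressed members (vertical, ordered by fitted change) in the 4 libraries (PS orange, RS blue, replicate 1 circles, replicate 2 triangles), with a grey line joining the stage means and a dotted line at 1. The upper 13 genes have both blue points right of the orange ones, the lowest 8 have both left of them, and *Prss21* and *Prss41* lie between.

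**Figure D3:**
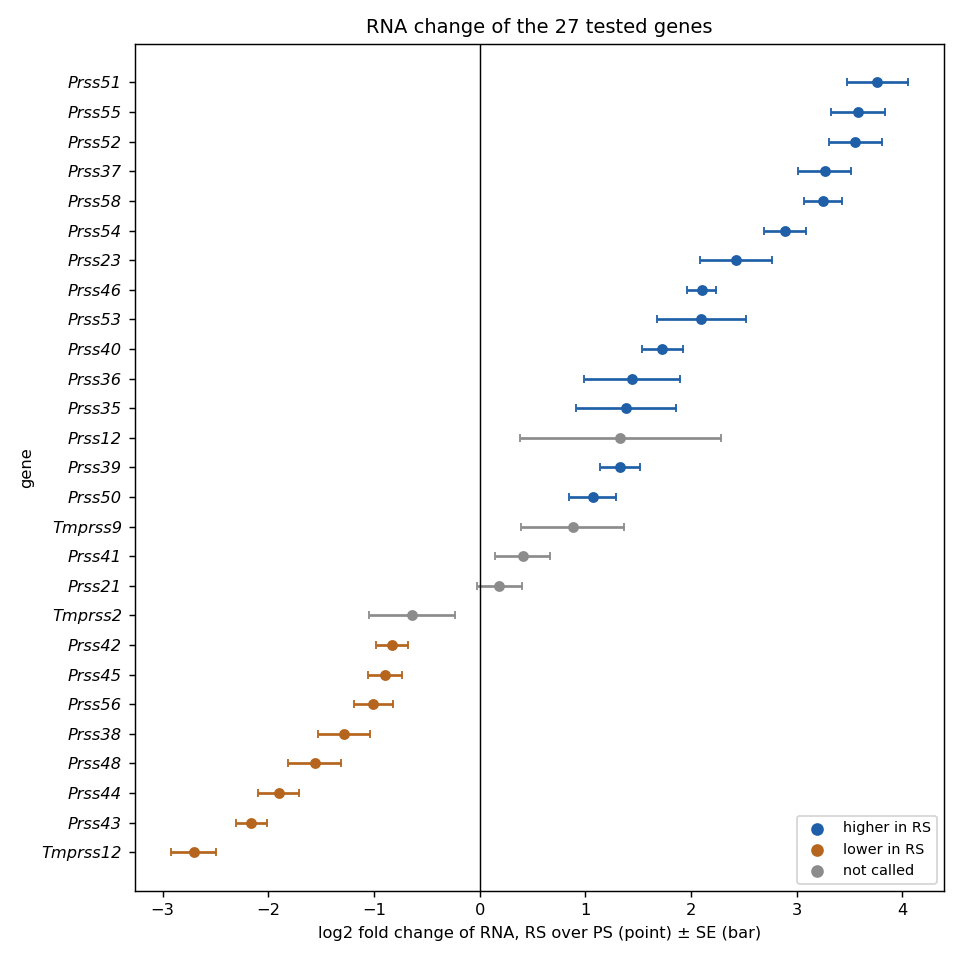
Fitted log2 fold change of RNA from PS to RS (horizontal, point) with its standard error (bar) for the 27 tested members (vertical), coloured by call. The changes run from -2.71 for *Tmprss12* to 3.77 for *Prss51*.

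The largest rises were those of 3 neighbours on chromosome 14 and of *Prss37*, *Prss58* and *Prss54*. *Prss55* encodes a lipid-anchored sperm protease needed for male fertility, and lies at chr14:64075443-64085389 (mm10, minus strand). Its RPKM was 8.99 and 15.1 in the PS replicates and 155 and 126 in the RS replicates, a log2 fold change of 3.58 (SE 0.25, adjusted p = 8.37e-06). The adjacent *Prss51* had an RPKM of 1.56 and 2.25 in PS and 28.7 and 21.8 in RS, a log2 fold change of 3.77 (SE 0.29, adjusted p = 1.17e-05). *Prss52*, on the far side of it, had an RPKM of 4.97 and 5.19 in PS and 70.1 and 46.2 in RS, a log2 fold change of 3.56 (SE 0.25, adjusted p = 8.74e-06). For all 3 genes the lowest RS library stood above the highest PS library, and the fitted folds lay between 11.8 and 13.6. They span 38.3 kb, in which 1 other gene, *4930471C04Rik*, has its start 88 bp from that of *Prss52* on the opposite strand, and its RPKM was 0.61 and 0.83 in PS and 10.0 and 11.5 in RS.

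H3K27ac at these 3 start sites was higher in RS as well. The fold enrichment is the height of an interval plus 1 fragment, over the sample's own background plus 1. The added fragment weighs more in a sample with a lower background. For each gene the fold enrichment was taken as the highest of the intervals within 2 kb of the start site. At *Prss55* it was 6.996 and 5.48 in PS and 17.5 and 14.5 in RS. At *Prss51* there was no interval in PS, and the RS values were 7.73 and 6.39. At *Prss52* it was 4.53 and 4.38 in PS and 11.4 and 9.87 in RS, in an interval shared with *4930471C04Rik*. The stages did not overlap at any of the 3, and the *Prss55* interval widened from chr14:64084958-64085736 in PS replicate 1 to chr14:64083838-64086855 in RS replicate 1.

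*Prss37*, a protease-like protein without known protease activity that is required for ADAM3 maturation, had an RPKM of 11.8 and 18.5 in PS and 164 and 120 in RS, a log2 fold change of 3.27 (SE 0.25, adjusted p = 1.27e-05). It lies at chr6:40514824-40519508, and *Prss58* lies on the same chromosome beyond the distance that defined a cluster. *Prss58* had an RPKM of 6.13 and 6.93 in PS and 60.4 and 60.6 in RS, a log2 fold change of 3.25 (SE 0.18, adjusted p = 3.79e-06). Thus the replicates of *Prss58* were closer to each other than those of *Prss37*. *Prss54* on chromosome 8 had an RPKM of 10.9 and 15.3 in PS and 100 and 89.5 in RS, a log2 fold change of 2.89 (SE 0.20, adjusted p = 7.71e-06). Neither group of *Prss54* overlapped the other, as for the genes above.

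H3K27ac differed among these 3 genes. At *Prss54* the fold enrichment was 6.58 in both PS samples and 17.5 and 15.1 in RS, with summits at -1668 to -1442 bases from the start. At *Prss37* it was 4.94 and 4.93 in PS and 7.73 and 6.39 in RS. At *Prss58* an interval was called in RS replicate 1 alone, with a fold enrichment of 4.48. A gene with 9.51-fold more RNA in RS thus had a called interval in 1 of 2 RS samples, close to the limit of what was called.

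Smaller rises were found for genes of low level. *Prss23* had an RPKM of 0.54 and 0.31 in PS and 2.41 and 2.05 in RS, a log2 fold change of 2.43 (SE 0.34, adjusted p = 0.000346). *Prss53*, a polyserase with several protease domains in a chain, had an RPKM of 0.22 and 0.38 in PS and 1.14 and 1.26 in RS, a log2 fold change of 2.10 (SE 0.42, adjusted p = 0.00248). Its transcript overlaps that of *Zfp646* on the opposite strand by 553 bases, and the libraries were made from double-stranded cDNA without strand, so reads there cannot be assigned. H3K27ac at *Prss53* was 5.76 and 9.32 in PS and 13.4 and 11.6 in RS, from an interval whose summits lay 1923 to 2193 bases inside the gene.

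*Prss36*, another polyserase, and *Prss35*, a protease-like gene known from the ovary, were the least firm of the 14 calls. *Prss36* had 10 and 13 reads in PS and 27 and 42 in RS, a log2 fold change of 1.44 (SE 0.45, adjusted p = 0.0210), and it was not called by DESeq2 (adjusted p = 0.0765) or without RS replicate 2 (adjusted p = 0.212). *Prss35* had 52 and 13 reads in PS and 105 and 83 in RS, a log2 fold change of 1.39 (SE 0.47, adjusted p = 0.0302), and it was not called without RS replicate 1 (adjusted p = 0.0657) or RS replicate 2 (adjusted p = 0.0604). The PS replicates of *Prss35* differed from each other by more than the higher of them differed from RS. H3K27ac intervals within 2 kb of its start were called in PS, at 4.94 and 3.29, and none in RS. Neither PS interval covered the start, and the PS replicate 2 value was the lowest in that sample's list.

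*Prss39* and *Prss40* encode the acrosomal proteases TESP1 and TESP2 and lie 62.5 kb apart on chromosome 1, on opposite strands. *Prss39* had an RPKM of 82.8 and 121 in PS and 235 and 263 in RS, a log2 fold change of 1.33 (SE 0.19, adjusted p = 0.000377). *Prss40* had an RPKM of 11.4 and 10.7 in PS and 40.5 and 30.5 in RS, a log2 fold change of 1.73 (SE 0.19, adjusted p = 9.97e-05). Both were thus well expressed in PS already, and both rose.

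H3K27ac at these start sites went the other way. At *Prss39* the fold enrichment was 14.8 and 20.8 in PS and 5.29 and 6.39 in RS. At *Prss40* it was 8.64 and 10.4 in PS and 4.07 and 3.48 in RS. In neither gene did the stages overlap. The PS interval of *Prss39* in replicate 1 was chr1:34497926-34499377, and further intervals with summits 12332 to 13979 bases from the start were called in all 4 samples. Over all genes, H3K27ac near the start was lower in both RS samples for 34.1%. The 250 bases before the RefSeq start of *Prss39* (GRCm38.p6, which is mm10, plus strand, chr1:34498162-34498411) are shown. At this promoter RNA of dKO cells was higher in RS and H3K27ac of wild-type cells was lower. Capitals mark the MYB core AACTG, read here on the other strand, 32 bases before the start.
Prss39: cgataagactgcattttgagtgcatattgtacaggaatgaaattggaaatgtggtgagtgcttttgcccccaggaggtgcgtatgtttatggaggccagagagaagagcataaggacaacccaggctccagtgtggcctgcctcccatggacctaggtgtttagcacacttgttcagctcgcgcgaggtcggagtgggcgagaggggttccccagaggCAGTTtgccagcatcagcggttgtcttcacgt

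The chromosome 9 array holds 6 testis protease genes in 66.4 kb (chr9:110798185-110864628), all on the plus strand and with no other gene between them. *Prss42*, *Prss43* and *Prss44* are known as testis serine proteases of germ cells, and *Prss50* as the testis protease TSP50, which carries threonine in place of the catalytic serine. In the order *Prss42*, *Prss44*, *Prss43*, *Prss45*, *Prss46*, *Prss50*, the first 4 were lower in RS and the last 2 higher, so the direction of change switched once along the array, between *Prss45* and *Prss46*, whose start sites lie 9.92 kb apart.

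*Prss43* had an RPKM of 46.3 and 51.5 in PS and 10.4 and 10.8 in RS, a log2 fold change of -2.16 (SE 0.15, adjusted p = 7.83e-06). *Prss44* had an RPKM of 30.2 and 36.2 in PS and 7.47 and 9.88 in RS, a log2 fold change of -1.90 (SE 0.20, adjusted p = 6.02e-05). These 2 central genes fell 4.47-fold and 3.74-fold. *Prss45* had an RPKM of 45.5 and 54.8 in PS and 25.6 and 27.01 in RS, a log2 fold change of -0.89 (SE 0.16, adjusted p = 0.00144). *Prss42*, at the start of the array, had an RPKM of 52.4 and 62.4 in PS and 30.7 and 32.3 in RS, a log2 fold change of -0.83 (SE 0.15, adjusted p = 0.00147). Their fitted changes were smaller, at 1.86-fold and 1.77-fold.

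*Prss46* had an RPKM of 21.1 and 20.6 in PS and 83.9 and 89.8 in RS, a log2 fold change of 2.10 (SE 0.14, adjusted p = 6.39e-06). *Prss50* had an RPKM of 10.9 and 14.4 in PS and 21.8 and 30.0 in RS, a log2 fold change of 1.07 (SE 0.22, adjusted p = 0.00306). In all 6 genes the PS and RS libraries did not overlap. In PS the first 4 genes had the higher RPKM, and in RS *Prss46* had the highest of the array.

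H3K27ac along the array moved in parts with the RNA. At *Prss42* the fold enrichment was 14.4 and 20.3 in PS and 10.2 and 6.39 in RS. At *Prss44* it was 18.9 and 19.2 in PS and 9.36 and 7.55 in RS. At *Prss43* it was 14.4 and 18.6 in PS and 10.2 and 10.4 in RS, so all 3 were lower in both RS samples. At *Prss45*, the values of 9.05 and 6.58 in PS and of 9.36 and 4.06 in RS overlapped. At *Prss46* it was 9.88 and 9.87 in PS and 13.4 and 11.0 in RS, and at *Prss50* no interval was called in PS while the RS values were 5.70 and 3.48. The RS replicate 2 value at *Prss50* was the lowest fold enrichment in that sample's list, and its interval did not cover the start. The RS samples of *Prss46* differed from each other by more than the lower of them differed from PS.

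The 250 bases before 4 start sites of the array are shown for the genes on either side of the switch that the RefSeq promoter table held (GRCm38.p6, plus strand). They cover chr9:110797935-110798184 for *Prss42*, chr9:110834338-110834587 for *Prss45*, chr9:110844256-110844505 for *Prss46* and chr9:110857717-110857966 for *Prss50*. Capitals mark the MYB core AACTG in *Prss42*, the same letters on the other strand in *Prss45*, and the RFX motif GTTGCC on the other strand in *Prss46*. *Prss50* held none of the motifs searched.
Prss42: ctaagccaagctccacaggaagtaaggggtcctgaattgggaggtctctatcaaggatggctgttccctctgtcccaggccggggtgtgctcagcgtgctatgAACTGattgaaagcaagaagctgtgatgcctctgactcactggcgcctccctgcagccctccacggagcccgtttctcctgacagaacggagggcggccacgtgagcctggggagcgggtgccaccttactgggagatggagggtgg
Prss45: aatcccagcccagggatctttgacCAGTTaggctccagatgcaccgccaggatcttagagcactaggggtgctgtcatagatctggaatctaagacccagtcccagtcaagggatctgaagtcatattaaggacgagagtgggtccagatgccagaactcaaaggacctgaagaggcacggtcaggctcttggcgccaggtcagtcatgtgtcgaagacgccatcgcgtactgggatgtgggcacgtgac
Prss46: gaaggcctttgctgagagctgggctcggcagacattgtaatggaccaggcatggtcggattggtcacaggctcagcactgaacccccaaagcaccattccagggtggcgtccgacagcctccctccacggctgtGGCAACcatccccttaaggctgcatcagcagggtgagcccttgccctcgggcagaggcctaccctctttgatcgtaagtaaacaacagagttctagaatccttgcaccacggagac
Prss50: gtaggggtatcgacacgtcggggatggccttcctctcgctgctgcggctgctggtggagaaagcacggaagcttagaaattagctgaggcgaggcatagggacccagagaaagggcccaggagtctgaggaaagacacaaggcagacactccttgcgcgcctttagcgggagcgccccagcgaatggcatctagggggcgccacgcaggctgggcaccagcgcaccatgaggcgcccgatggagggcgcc

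**Figure D4:**
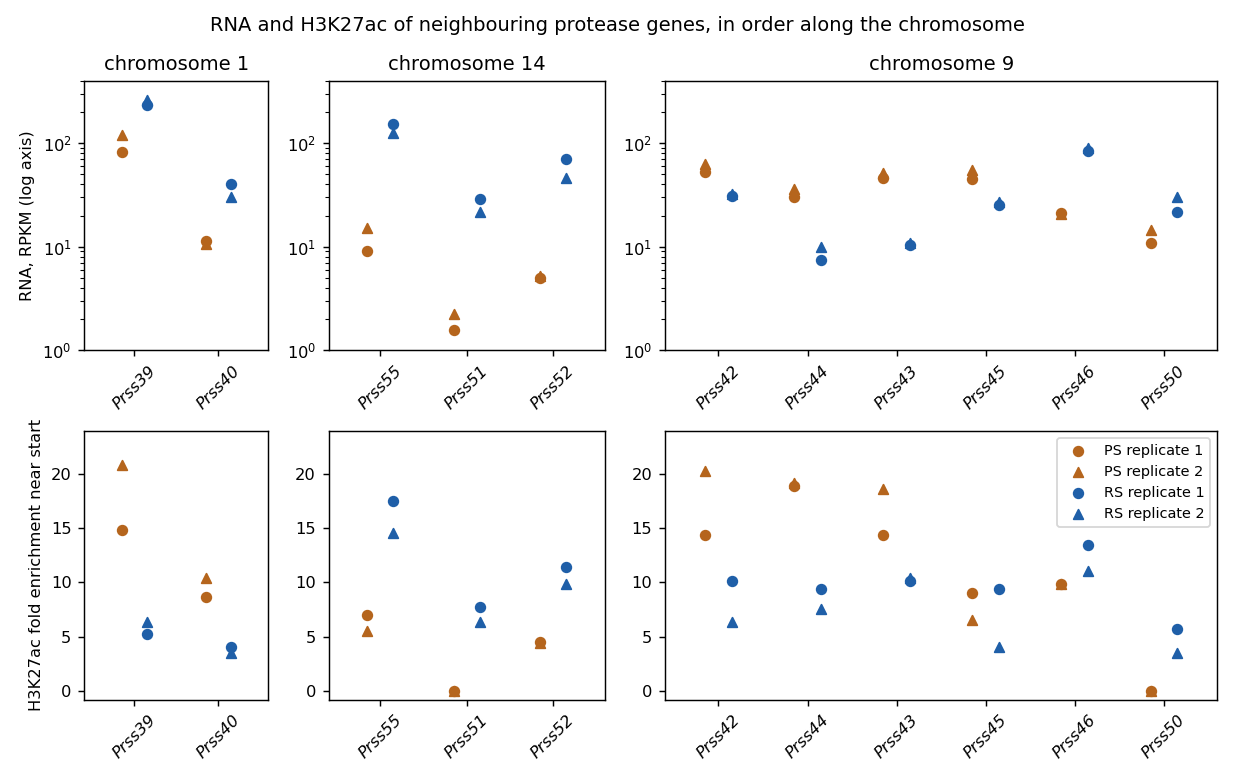
RPKM on a log axis (upper row) and highest H3K27ac fold enrichment within 2 kb of the start site (lower row, 0 where no interval was called) for the genes of 3 expressed clusters in order along the chromosome, with PS in orange, RS in blue, replicate 1 as circles and replicate 2 as triangles. RNA and H3K27ac rise together on chromosome 14, part on chromosome 1, and change direction along the chromosome 9 array.

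Among the members that fell outside the array, *Tmprss12*, a membrane-anchored protease needed for male fertility, had the largest change. Its RPKM was 27.8 and 31.0 in PS and 3.76 and 5.03 in RS, a log2 fold change of -2.71 (SE 0.21, adjusted p = 1.26e-05), or 6.54-fold. It was the one *Tmprss* gene expressed in these cells. H3K27ac at its start was 16.9 and 18.1 in PS and 15.9 and 9.87 in RS, so that RS replicate 1 lay near the PS samples, while RNA was low in both RS libraries.

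*Prss48* had an RPKM of 11.6 and 10.7 in PS and 4.07 and 3.22 in RS, a log2 fold change of -1.56 (SE 0.25, adjusted p = 0.000725). *Prss38* had an RPKM of 7.15 and 6.98 in PS and 2.88 and 2.74 in RS, a log2 fold change of -1.28 (SE 0.25, adjusted p = 0.00193). H3K27ac did not fall with them. It was 4.53 and 4.93 in PS and 6.51 and 5.22 in RS at *Prss48*, and 9.47 and 11.5 in PS and 13.0 and 9.29 in RS at *Prss38*, where the stages overlapped. *Prss56*, known from eye development, had an RPKM of 25.4 and 27.3 in PS and 14.5 and 10.9 in RS, a log2 fold change of -1.01 (SE 0.18, adjusted p = 0.00153). Near its start there were values of 4.94 and 6.03 in PS, 3.66 in RS replicate 1 and no interval in RS replicate 2. Its strongest interval lay inside the gene, 3462 to 3488 bases from the start, with 18.9 and 18.6 in PS and 6.51 and 4.64 at the same place in RS.

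The 5 tested members that were not called fell into genes that were expressed in both stages and genes near background. *Prss21*, or testisin, a lipid-anchored protease of the sperm surface, had an RPKM of 31.0 and 46.4 in PS and 40.02 and 46.0 in RS. Its log2 fold change was 0.19 (SE 0.21, adjusted p = 0.462), and the sign turned, to -0.11, without PS replicate 1. *Prss41* had an RPKM of 4.58 and 3.72 in PS and 5.66 and 5.04 in RS, a log2 fold change of 0.41 (SE 0.26, adjusted p = 0.196). H3K27ac at both was lower in RS. At *Prss21* the fold enrichment was 20.6 and 22.5 in PS and 9.36 and 8.13 in RS, and at *Prss41* it was 9.05 and 8.77 in PS and 5.70 and 3.48 in RS.

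*Prss21* and *Prss41* were the expressed genes of a cluster of 7, in which the other 5 had at most 6 reads in any library and no interval near a start. The 250 bases before the start of *Prss21* (GRCm38.p6, plus strand, chr17:23867822-23868071) are shown because H3K27ac was lower in RS at this promoter while its RNA was not called changed. Capitals mark 2 copies of the RFX motif GTTGCC, both read on the other strand.
Prss21: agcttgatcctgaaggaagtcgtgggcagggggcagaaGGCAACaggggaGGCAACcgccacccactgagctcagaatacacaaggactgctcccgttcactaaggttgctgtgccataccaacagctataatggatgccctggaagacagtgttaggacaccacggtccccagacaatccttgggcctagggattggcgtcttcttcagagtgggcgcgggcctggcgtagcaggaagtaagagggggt

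*Tmprss9*, a polyserase of the membrane, had 7 and 14 reads in PS and 19 and 24 in RS, a log2 fold change of 0.88 (SE 0.49, adjusted p = 0.145), and it was called higher without PS replicate 2 (adjusted p = 0.0289). *Prss12*, or neurotrypsin, had 0 and 10 reads in PS and 22 and 7 in RS, a log2 fold change of 1.33 (SE 0.95, adjusted p = 0.246). *Tmprss2* had 28 and 17 reads in PS and 18 and 14 in RS, a log2 fold change of -0.64 (SE 0.41, adjusted p = 0.197). The replicates of *Prss12* differed widely within each stage, and none of these 3 genes was called at these read numbers.

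Over the whole family, an interval within 2 kb of a start site was found in both PS samples for 19 of 55 members, against 55.5% of all genes, and in both RS samples for 20, against 50.8%. The fold enrichment was higher in both RS samples than in both PS samples for 10 members, against 8.59% of all genes, and lower in both for 10, against 34.1%. A gene can count as lower only with an interval in both PS samples, and as higher only with an interval in both RS samples. These shares therefore also depend on how many genes had an interval, and 27 of the 28 members under the read filter had none near a start. When intervals that the authors annotated to a member at any distance were added, 27 members had an interval in both PS samples (68.4% of all genes) and 27 in both RS samples (64.4%). Then 11 members were higher in both RS samples (15.4%) and 15 were lower (38.8%). Without RS replicate 2 the 11 became 17, and with intervals of at least 10 fragments of pileup the 27 members with an interval in both RS samples became 17. With 2 samples against 2, an exact permutation test of a single gene cannot go below a two-sided p of 0.333, so these are counts of values that did not overlap.

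Of the 14 members with higher RNA in RS, 8 had higher H3K27ac within 2 kb of the start in both RS samples. The share was 30.2% among all 4448 genes with higher RNA. These were *Prss37*, *Prss46*, *Prss50*, *Prss51*, *Prss52*, *Prss53*, *Prss54* and *Prss55*. For *Prss50* the RS replicate 2 value, 3.48, was the lowest in that sample's list. H3K27ac near the start was lower in both RS samples for 3 of the 14, *Prss35*, *Prss39* and *Prss40*, against 34.1% of all genes. The share among genes with higher RNA was not computed. Of these 3, *Prss35* had weak PS intervals, at 4.94 and 3.29, the latter the lowest value in the PS replicate 2 list. For *Prss23*, *Prss36* and *Prss58* the stages overlapped or no interval was called. Of the 8 members with lower RNA, 5 had lower H3K27ac in both RS samples, *Prss42*, *Prss43*, *Prss44*, *Prss56* and *Tmprss12*, against 67.1% of the 4049 genes with lower RNA. *Prss48* alone was higher, and *Prss38* and *Prss45* overlapped. Peaks were called in each sample with its own background, which was 0.72 to 1.46 fragments, and total reads of these samples are unknown.

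**Figure D5:**
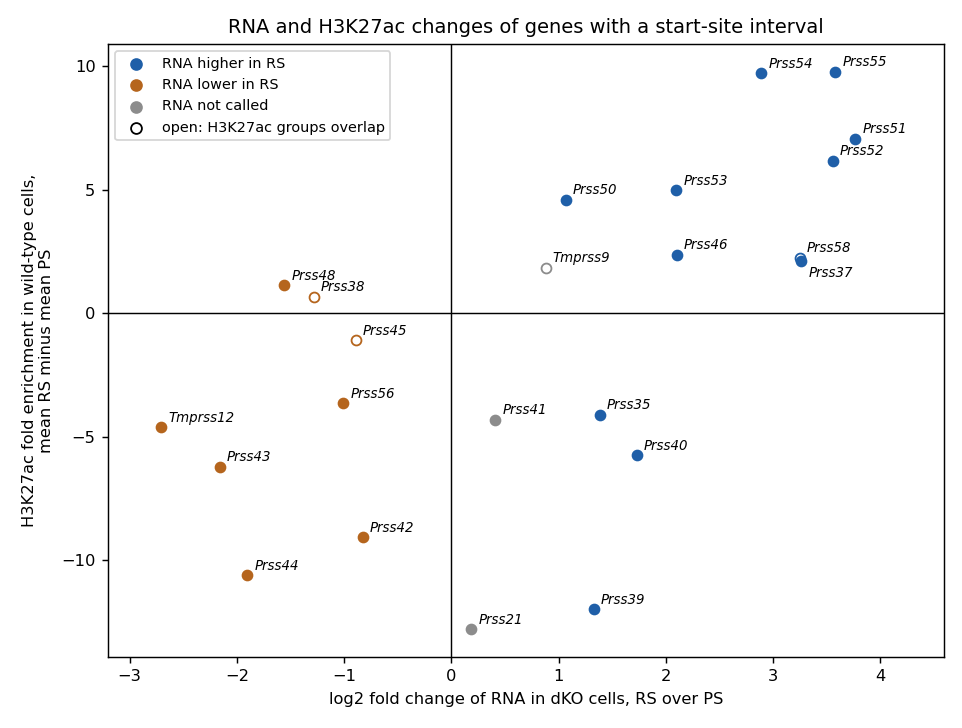
Fitted log2 fold change of RNA from PS to RS in dKO cells (horizontal) against the difference of mean H3K27ac fold enrichment, RS minus PS, in wild-type cells (vertical) for the 23 tested members with an interval within 2 kb of the start in any sample, coloured by RNA call, with open circles where H3K27ac values of the stages overlap. *Prss39*, *Prss40* and *Prss35* lie at the lower right, with higher RNA and lower H3K27ac in RS, and *Prss54* and *Prss55* at the upper right. The point of *Prss35* rests on weak PS intervals, at 4.94 and 3.29.

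Promoter sequence was read from the RefSeq table (GRCm38.p6), which matched 39 of 55 members, 17 of them expressed, over 300 bases from 250 before to 50 after the start. The CRE core TGACG, on either strand, was held by 9 of 39 (23.1%) against 20.8% of all 32851 promoters, and the MYB core AACTG by 22 (56.4%) against 44.8%. The RFX motif GTTGCC was held by *Prss21* and *Prss46* (5.13%) against 12.5%. The letters TATAAA were held by 5 of 39 (12.8%) against 13.6%, and none of these 5 was expressed. They were *Prss1*, *Prss2* and *Prss3* of the chromosome 6 cluster, and *Prss28* and *Prss29* of a chromosome 17 cluster. None of the 17 expressed members held the letters, but *Prss43*, *Prss44*, *Prss51*, *Prss52* and *Prss55*, also expressed, had no matched promoter. A difference between expressed and silent members was not tested. The 250 bases before the start of the silent pancreatic trypsinogen *Prss1* (GRCm38.p6, plus strand, chr6:41458680-41458929) are shown as an example, with TATAAA in capitals 31 bases before the start.
Prss1: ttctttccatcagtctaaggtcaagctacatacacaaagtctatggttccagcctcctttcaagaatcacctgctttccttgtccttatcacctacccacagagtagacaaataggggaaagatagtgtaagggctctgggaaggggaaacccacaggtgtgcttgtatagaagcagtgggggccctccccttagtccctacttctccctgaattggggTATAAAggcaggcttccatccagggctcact

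Proteases outside the name rule, their inhibitors and their partners were described from 3 lists. Of 21 listed trypsin-like and convertase genes, 13 were tested, of which 5 were called higher in RS and 1 lower, with a median log2 fold change of 0.21. *Acr*, which encodes acrosin, the main acrosomal protease, had an RPKM of 105 and 127 in PS and 142 and 148 in RS, and its log2 fold change of 0.37 (SE 0.14, adjusted p = 0.0455) was under the 1.5-fold limit. *Pcsk4*, a convertase of germ cells, had a log2 fold change of 0.21 (SE 0.20, adjusted p = 0.383). *Pcsk7*, a widely expressed convertase, was lower, by -0.79 (SE 0.22, adjusted p = 0.0120), and *Pcsk6* was higher, by 2.16 (SE 0.23, adjusted p = 7.91e-05).

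Of 17 listed serine protease inhibitor genes, 11 were tested, of which 1 was called higher in RS and 4 lower, with a median log2 fold change of -0.25. *Spink2*, the acrosin inhibitor of the testis, had an RPKM of 577 and 603 in PS and 377 and 386 in RS, a log2 fold change of -0.59 (SE 0.12, adjusted p = 0.00214). *Spint2*, an inhibitor of membrane serine proteases, had an RPKM of 78.2 and 68.6 in PS and 30.0 and 31.5 in RS, a log2 fold change of -1.21 (SE 0.14, adjusted p = 9.85e-05). *Serpinb6a* and *Spint1* were not called, with log2 fold changes of -0.34 (adjusted p = 0.0363, under the 1.5-fold limit) and -0.25 (adjusted p = 0.205). The single inhibitor called higher was *A2m*, the general protease trap alpha-2-macroglobulin, at an RPKM below 1 in all libraries, and it was chosen for mention after its values were seen.

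All 13 listed acrosomal and ADAM3 maturation genes were tested, of which 4 were called higher in RS and 2 lower, with a median log2 fold change of 0.07. *Adam3* itself had an RPKM of 348 and 462 in PS and 600 and 573 in RS, a log2 fold change of 0.57 (SE 0.16, adjusted p = 0.0113), just under the 1.5-fold limit. *Clgn*, a chaperone of ADAM3, had a log2 fold change of -0.56 (SE 0.12, adjusted p = 0.00286), also under it. *Cmtm2a* and the acrosin-binding gene *Acrbp* had log2 fold changes of 0.07 (adjusted p = 0.593) and -0.13 (adjusted p = 0.434). These 4 genes with most reads had fitted changes under 1.5-fold. The 4 called higher, named after their values were seen, were the ADAM3 maturation chaperones *Calr3* and *Pdilt*, with log2 fold changes of 3.14 (SE 0.23, adjusted p = 1.09e-05) and 2.94 (SE 0.26, adjusted p = 2.50e-05), and the acrosomal genes *Spaca7* and *Zp3r*, with 3.0 (SE 0.29, adjusted p = 4.35e-05) and 2.99 (SE 0.25, adjusted p = 2.02e-05). The 2 called lower, also named after their values were seen, were *Tex101* and *Ly6k*. Their log2 fold changes were -1.60 (SE 0.24, adjusted p = 0.000486) and -0.88 (SE 0.13, adjusted p = 0.000516).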

How the data were processed

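H3K27ac ChIP-seq (wild type) and RNA-seq (*Rnf8;Scml2*-dKO) of PS and RS were grouped by the sample labels, 2 replicates each. The submitters' processing notes name mm10, Bowtie 1.1.1, MACS2 2.1.0.20140616 and STAR 2.4.2a; the study's methods name other Bowtie and MACS2 versions. The authors deposited read counts of uniquely aligned reads, split between RefSeq isoforms by an expectation-maximization algorithm, and RPKM values that the authors normalized for length and library size. The authors deposited, for each interval called in each sample, the pileup signal at each summit, the ratio of fold enrichment over background, and -log10 p and q values. Reads of near-identical copies are lost under unique alignment.

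Rows of a gene were summed (*Tmprss3* has 2). Counts were tested with edgeR 4.0.16 (TMM, quasi-likelihood, Benjamini-Hochberg) in R 4.3.3 for genes with at least 10 reads in at least 2 samples. The standard error is the log2 fold change divided by the square root of F. Fold enrichment near a start is the highest within 2 kb, and 0 means no interval. Alternatives used DESeq2 1.42.0 and limma 3.58.1 on log2(RPKM + 1) and log2(RPKM + 0.1), other windows, thresholds and filters, the replicate block and leaving out each sample. Python 3.11.15 with pandas 2.3.3 and matplotlib 3.10.9 was used. On simulated counts of 14307 genes, edgeR recovered 85 of 100 genes changed 2-fold and 100 of 100 changed 4-fold in the comparison of RS with PS, with 9 of 194 calls false. The dispersion was fixed, few genes were changed, and none of low level was among them. These rates therefore do not cover members of low level such as *Prss12*, *Prss36*, *Prss53* and *Tmprss9*. Members and gene lists were chosen with earlier results of these data known. Every member that passed the filter is named with its values, the rest with their reads, and of each further list the 4 genes with most reads. The study's methods call the replicates biological, and the labels do not say whether same-numbered samples share a mouse. Counting limits cover counting error only. RNA depth was 9655405 to 12289694 reads.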

Additional observations from a re-analysis of the deposited data

How the results depend on the processing

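The counts of members called higher in RS stayed between 12 and 15, and of those called lower at 8, under all 10 alternatives of the RNA test, including DESeq2 (13 and 8) and no filter on low counts (14 and 8). Leaving out each RNA library in turn gave 12 to 15 higher, 8 lower and a median log2 fold change of 0.84 to 1.43. The median moved to 0.49 with limma on log2(RPKM + 1), a scale that compresses low genes by construction. Of 27 tested members, 23 kept direction and call under every alternative in which they were tested; *Prss12*, among them, fell below the read filter without PS replicate 2 and without RS replicate 1. The exceptions were *Prss35*, *Prss36* and *Tmprss9*, whose calls depended on 1 library or on the tool, and *Prss21*, whose log2 fold change was -0.11 to 0.56 without each library, negative without PS replicate 1; the cause was not tested. With the replicate number as a block, the counts were 14 and 8 and the median 1.34, and no call of a member changed. Same-numbered RNA samples deviated together with a correlation of 0.22, but the labels do not pair them, with 2 numbers only. Comparing same-numbered H3K27ac samples gave 12 higher and 15 lower. With intervals of at least 10 fragments of pileup, 17 members had an interval in both RS samples in place of 27. Leaving out each H3K27ac sample in turn gave 11 to 17 members higher in RS and 15 to 19 lower, with 17 higher without RS replicate 2; the cause was not tested. The number of members expressed in PS was 19 to 21 and in RS 19 to 24 under other levels and without each library. Clusters numbered 10 with a shorter limit between neighbours and 9 with a longer one. Read depth limits statements on *Prss12*, *Tmprss2* and *Tmprss9*, and unknown ChIP depth limits those on weak intervals.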
